A study of Mus musculus with 9 samples.

Results

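The cytosolic ribosomal protein genes of mouse microglia were examined across wild-type mice and a pair of amyloid-model genotypes. Members were the genes of the deposited table named Rps or Rpl with a number, together with Rpsa, Rplp0, Rplp1 and Rplp2. After the number only a letter a, x, y or l and further digits could follow. Symbols with other endings, such as Rpl36al, Rpl37rt and Rps27rt, did not match. Pseudogene symbols, the Rps6k kinases and genes with a mean under 10 estimated counts over the 9 libraries were left out. Of 84 matching genes, 81 of the 18571 genes in the table qualified, namely 32 of the small (40S) subunit and 49 of the large (60S) subunit. The 3 left out were Rpl32l, Rpl10l and Rpl3l, at mean counts of 0.467, 0.556 and 6.25, and the lowest members were Rpl39l at 19.5, Rps27l at 549 and Rps6 at 621.

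The series asked what connexin 43, the gap-junction protein encoded by Gja1, does in microglia of an amyloid model. Microglia, the resident macrophages of the brain, were panned with an antibody to CD45 out of the hippocampus and cortex of mice aged 9 months, on the C57BL6/j background, and poly-A RNA was read in single-end 50-nt reads. The 3 groups of 3 libraries were wild type (WT), APP/PS1 (APP), which carries human amyloid transgenes, and APP/PS1:Cx3cr1-CreER:Cx43-flox/flox (ACF). In ACF, the tamoxifen-activated recombinase CreER is expressed from the Cx3cr1 gene and acts on floxed Cx43. The protocol gives tamoxifen by gavage at 8 months of age, at 0.1 mg/g on 5 days, under the samples of all 3 groups. No group carried CreER without floxed Cx43, so the recombinase allele, the Cx43 deletion and anything else that sets the ACF mice apart from APP mice cannot be told apart. The labels do not say whether the libraries of a group came from separate mice, and the p-values here measure only the spread between these libraries, which may be technical.

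Each cytosolic ribosome is built from ribosomal RNA and a fixed set of ribosomal proteins, which are needed in matched amounts. Most of their mRNAs are short, abundant and begin with a run of pyrimidines, the terminal oligopyrimidine motif, through which growth signals acting by mTOR and the binding protein Larp1 control their translation. Rpl5 and Rpl11 also act outside the ribosome, where they bind Mdm2 and so stabilise p53. Rps6 is the substrate for which the S6 kinases are named. The proteins Rplp0, Rplp1 and Rplp2 form the stalk of the ribosome that recruits elongation factors.

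Total estimated counts were 18907681 to 19565354 per library. Gja1 was at 682, 642 and 716 counts in WT, 727, 688 and 788 in APP and 514, 484 and 539 in ACF. The Y-linked gene Ddx3y had 4137 to 4538 counts in the WT and APP libraries and 0 to 2.34 in ACF, so the ACF genotype and the sex of the mice cannot be told apart. The 8 microglia markers summed to 18169 to 18465 counts per 1000000 (CPM, on library sizes scaled by TMM, the trimmed mean of M values) in WT, 20705 to 20903 in APP and 17873 to 18006 in ACF. Markers of other cells differed between the groups as well. The 11 neutrophil and monocyte markers summed to 2999 to 3025 CPM in WT, 917 to 943 in APP and 8609 to 8771 in ACF. All 11 were lower in APP than in WT and higher in ACF than in APP by the edgeR test. The 6 erythroid markers summed to 1184 to 1239, 248 to 275 and 95.1 to 105 CPM in WT, APP and ACF, and the 7 astrocyte markers to 433 to 443, 629.8 to 650.2 and 485 to 496. None of these markers was at 0 in all libraries, and their part in the results was not tested.

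The ribosomal protein mRNAs took a larger part of the APP libraries than of the others. Together the 81 genes held 3.24, 3.22 and 3.20% of the counts in the WT libraries, 6.27, 6.25 and 6.11% in APP and 3.51, 3.53 and 3.47% in ACF. The 3 groups did not overlap, and ACF lay just above WT. Both subunits followed this order, with 40S genes at 1.29% ± 0.00832, 2.56% ± 0.0325 and 1.41% ± 0.0195 and 60S genes at 1.93% ± 0.0186, 3.66% ± 0.0580 and 2.09% ± 0.0152 (mean ± SD, n = 3, in WT, APP and ACF). On the length-scaled TPM the members held 10.02% ± 0.0702 in WT, 16.6% ± 0.214 in APP and 10.2% ± 0.0902 in ACF. In bulk RNA, fewer cells of a type and less RNA per cell cannot be told apart, and so a larger share of the library does not say that a cell held more of these mRNAs. Among members, the highest mean TPM in WT belonged to Rpl10, which joins the 60S subunit late in its assembly, at 3077 ± 43.1, and Rps9 at 3073 ± 206, whose difference was smaller than the SD of Rps9. Rplp1, Rps23 and Rpl23a followed at 2479 ± 52.2, 2392 ± 161 and 2391 ± 141. Rps23 and Rpl23a were closer together than their SDs, and Rplp1 was above them by more than its own SD and less than theirs. In APP the order of these 5 genes differed. Rpl23a and Rplp1 were highest there at 5057 ± 342 and 4695 ± 80.3 TPM, then Rps23 at 4472 ± 367 and Rpl10 at 4366 ± 82.9, which differed by less than the SD of Rps23, and Rps9 was lowest at 3643 ± 253. The lowest in WT were Rpl39l at 2.17 ± 0.461 and Rps6 at 39.5 ± 4.25 TPM.

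**Figure D1:**
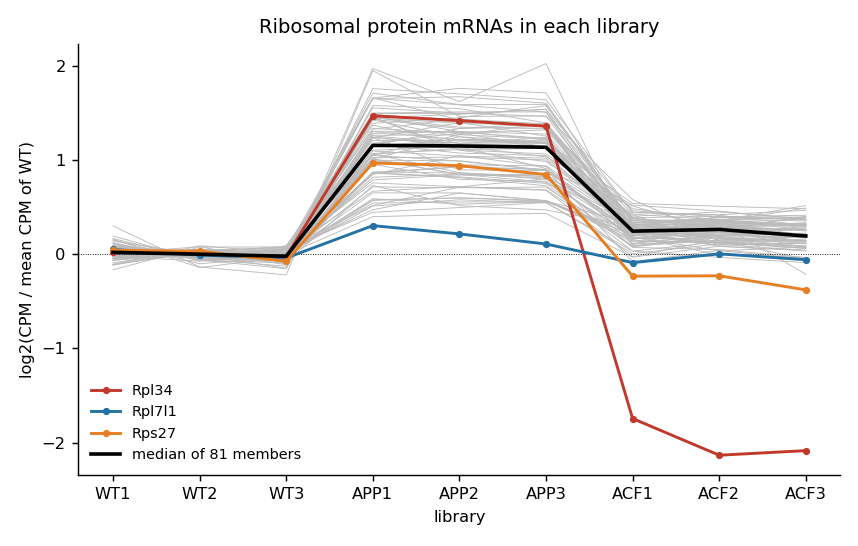
Each line is 1 ribosomal protein gene over the 9 libraries (x axis), plotted as the log2 ratio of its CPM to the mean CPM of the 3 WT libraries (y axis), with the median of the 81 genes in black. All lines are above 0 in the APP libraries, and in ACF most come back to just above 0 while Rpl34 and Rps27 lie furthest below it.

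All 81 ribosomal protein genes were higher in APP than in WT, by a median log2 change of 1.15 against -0.036 over the 14696 genes tested. By the edgeR quasi-likelihood test with Benjamini-Hochberg adjustment over all tested genes at 0.05, 81 of 81 rose, where 26.9% of all tested genes did. In 50 of the 81 the rise was at least 2-fold, against 4.83% of all tested genes. Every member had its 3 APP libraries above its 3 WT libraries, as had 28.9% of tested genes. The size of the change depended on the scaling: without scaling factors the median of all genes moved to -0.17 and that of the members to 1.01, and on TPM they moved to -0.35 and 0.76. On TPM, tested with limma, 78 members rose and Rpl7l1, at -0.18, was the 1 that fell, beside 11.4% and 65.9% of all genes tested that way. With offsets that follow transcript length, described further on, the direction itself changed for some members. By the edgeR test 51 were higher and 16 lower, with a median of 0.25, beside 25.1% and 29.2% of all tested genes. Rpl8, Rpl13 and Rpl18, given here as rises, were lower, with log2 changes of -0.28, -0.29 and -0.36.

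The rise was uneven. Rps25 (chr9:44407714-44410406), a 40S protein used in internal initiation, was at 338, 321 and 312 CPM in WT and 1095, 1053 and 1009 in APP. Every APP library was far above every WT library. Its log2 change was 1.70 (SE 0.039, edgeR adjusted p 2.05e-18). Rps27a (chr11:29545842-29548040), made as a fusion with ubiquitin, was at 432, 458 and 447 CPM in WT and 1405, 1509 and 1459 in APP and rose by 1.71 (SE 0.032, edgeR adjusted p 9.58e-25). Rpl30 and Rpl31, both of the 60S subunit, rose by 1.64 ± 0.029 and 1.64 ± 0.22 (log2 change ± SE). The largest fitted change, 1.87 (SE 0.26, edgeR adjusted p 9.07e-07), belonged to Rpl39l, a paralogue of Rpl39 with 12.0, 10.8 and 10 counts in WT and 38.8, 30.8 and 40.9 in APP, far fewer than any other member had. At the other end stood Rpl7l1 (chr17:46773907-46782656), a paralogue of Rpl7 found in precursors of the 60S subunit. It was at 69.1, 66.3 and 64.9 CPM in WT and 82.4, 77.5 and 72.0 in APP and rose by 0.21 (SE 0.046, edgeR adjusted p 0.000337). Rpl8 (chr15:76904071-76906318), which lines the peptidyl transferase centre, was at 438, 469 and 451 CPM in WT and 596, 606 and 610.5 in APP. Its groups were well apart, yet the rise was only 0.42 (SE 0.031, edgeR adjusted p 9.51e-12). Rpl13, Rpl18 and Rplp0 rose by 0.50 ± 0.034, 0.54 ± 0.033 and 0.55 ± 0.026.

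The medians of the subunits were about the same. The median log2 change of APP against WT was 1.16 over the 32 genes of the 40S subunit and 1.15 over the 49 of the 60S subunit, and both ranges were wide, from 0.56 to 1.71 and from 0.21 to 1.87. Among the stalk proteins, Rplp1 rose by 1.31 ± 0.027 while Rplp0, to which it is anchored, rose by 0.55 ± 0.026. The difference between them was not tested, and Rplp2 is not reported here. Both p53-linked proteins rose, Rpl5 by 1.42 ± 0.034 and Rpl11 by 1.20 ± 0.029. Rps19, the gene most often mutated in Diamond-Blackfan anaemia, rose by 1.15 ± 0.098 (with the length offsets it did not pass, at 0.064), Rps14 by 1.38 ± 0.031, and Rpsa, also known as the laminin receptor, by 0.58 ± 0.027. Rps6 rose by 1.02 ± 0.12 from a low level, with 25.2, 20.4 and 22.0 CPM in WT, 53.1, 41.9 and 41.7 in APP and 32.1, 27.0 and 29.7 in ACF. Near-identical pseudogenes can share reads with such genes, and how the authors' counting assigned them is not given in the sources used here, so levels of single members are uncertain.

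Paralogue pairs moved together with different sizes. Rpl22l1 rose by 1.42 ± 0.041 and Rpl22 by 1.10 ± 0.038, Rps27l by 1.48 ± 0.070 and Rps27 by 0.92 ± 0.043, and Rpl39l by 1.87 ± 0.26 and Rpl39 by 1.51 ± 0.029 (log2 change ± SE). For Rpl7l1 and Rpl7 the order was the opposite, at 0.21 ± 0.046 and 1.505 ± 0.031. The differences within these pairs were not tested. The 4 X-linked members Rpl10, Rpl36a, Rpl39 and Rps4x rose by 0.90, 1.20, 1.51 and 1.18. With the length offsets Rps27 was lower in APP, at -0.61, and Rpl36a did not pass, at -0.0053. Rpl3, whose paralogue Rpl3l was under the limit on counts, rose by 0.62 ± 0.029.

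In ACF all 81 members were lower than in APP. By the same edgeR test 81 of 81 fell, where 27.7% of all tested genes did, and their median log2 change was -0.89 against -0.011. In 31 of them the fall was at least 2-fold, against 3.06% of tested genes, and in all 81 the 3 ACF libraries lay under the 3 APP libraries, as in 30.3% of tested genes. This comparison shares the 3 APP libraries with that of APP against WT, and a low or high APP value enters both. Without ACF library 2, or without ACF library 3, 80 of 81 passed, and the shares of all tested genes in these fits are not given here. With the length offsets 15 were higher and 43 lower, beside 27.5% and 24.2% of all tested genes. Over the same comparison the neutrophil and monocyte markers went from 917 to 943 to 8609 to 8771 summed CPM. The medians of the 40S and 60S genes were -0.89 and -0.88. With the length offsets these medians were -0.027, with 6 higher and 13 lower of 32, and -0.28, with 9 and 30 of 49, and the difference between the subunits was not tested.

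Rpl34 had the lowest log2 change, -3.39 (SE 0.083, edgeR adjusted p 1.82e-09). Apart from it and the sparse Rpl39l, at -1.78 ± 0.26, the strongest falls were those of Rpl35a, a further Diamond-Blackfan gene, and of Rps27a and Rpl31. Rpl35a was at 814, 748 and 749.5 CPM in APP and 305, 270.3 and 278 in ACF. The ACF libraries all lay under the lowest APP library by a wide margin, and the log2 change was -1.44 (SE 0.041, edgeR adjusted p 4.25e-16). Rps27a was at 1405, 1509 and 1459 CPM in APP and 529.6, 562 and 551 in ACF and fell by 1.41 on the log2 scale (SE 0.031, edgeR adjusted p 3.37e-23). Rpl31 changed by -1.35 ± 0.22 with a much wider SE. Rpl7a (chr2:26910685-26913312), a 60S protein, changed least. It was at 845, 855 and 836 CPM in APP and 712, 731 and 723 in ACF, so that the groups were close without overlapping, and its log2 change was -0.23 (SE 0.026, edgeR adjusted p 3.04e-08). Rpl7l1, Rplp0, Rps2 and Rpl8 changed by -0.26, -0.27, -0.28 and -0.39. With the length offsets Rpl7a, Rps2 and Rpl8 were higher in ACF than in APP by the edgeR test, with log2 changes of 0.31, 0.15 and 0.15. The p53-linked Rpl5 and Rpl11 changed by -1.05 and -1.02, and the 4 X-linked members by -0.61 (Rpl10), -0.93 (Rpl36a), -1.35 (Rpl39) and -0.997 (Rps4x). With the length offsets Rplp0, Rpl10 and Rpl36a did not pass, at -0.050, -0.016 and -0.012.

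Against WT, ACF was slightly higher. By the edgeR test 59 members rose and 2 fell, Rpl34 and Rps27, while 20 did not pass. Of all tested genes 24.7% rose and 23.0% fell. The median log2 change was 0.23 against -0.0086. On TPM, tested with limma, the split was 24 higher and 11 lower with a median of 0.036, beside 12.2% higher and 49.4% lower of all genes tested that way, while the median of all genes moved to -0.17. With the length offsets 31 were higher and 15 lower, beside 25.0% and 20.7% of all tested genes, and the median was 0.054. Rpl41, which encodes the shortest ribosomal protein, had the largest rise. It was at 217, 218 and 212 CPM in WT and 313, 307 and 301 in ACF, with every ACF library far above WT, a log2 change of 0.51 (SE 0.031, edgeR adjusted p 1.53e-13). Rpl27, Rps3a1, Rpl35 and Rpl23 rose by 0.45, 0.44, 0.42 and 0.41. Rps27 was at 269, 268 and 248 CPM in WT, 512, 502 and 471 in APP and 223, 223 and 201 in ACF. The ACF libraries were the lowest and the APP libraries the highest of the 9, and the change of ACF against WT was -0.28 (SE 0.044, edgeR adjusted p 4.97e-05). Rpl7l1 and Rpl36 did not pass, at -0.048 and -0.030. Both passed as lower on unscaled library totals and on TPM.

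Rpl34 (chr3:130726827-130730398), a 60S protein, departed from the other members in ACF. The Rpl34 row held estimated counts of 3439, 3422 and 3375 in WT, 8540.1, 8367 and 8019 in APP and 949, 734 and 762 in ACF. ACF libraries held fewer than any WT library, while the APP libraries were highest, as for the other members. The row Rpl34-ps1, a pseudogene outside the rule, had 36.8, 0 and 8.83 in WT, 21.4, 0 and 22.6 in APP and 2889, 3019 and 2776 in ACF. It was nearly empty in WT and APP, and each ACF library held far more. Of the CPM of both rows together, the pseudogene took 78.1% ± 2.61 in ACF, 0.443% ± 0.554 in WT and 0.177% ± 0.155 in APP (SD, n = 3). For Rpl34 alone the log2 changes were 1.42 (SE 0.071, edgeR adjusted p 2.66e-07) in APP against WT and -1.98 (SE 0.085, edgeR adjusted p 1.41e-07) in ACF against WT. Summed over both rows, a choice made after seeing the data, ACF was lower than APP by a log2 change of -1.21 and higher than WT by 0.20 (SE 0.037, edgeR adjusted p 5.49e-05). For that sum, 1 member, Rps27, was lower in ACF than in WT. Which locus the reads came from was not tested. The pseudogene row Rpl31-ps12 held 4497 to 11250.2 counts, more than Rpl31 itself with 899.8 to 3625, and it too was highest in the 3 APP libraries. For Rps27, the copy Rps27rt held 11.6 to 58.0 counts in any library, against 3866 or more for Rps27, too few to change its order.

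**Figure D2:**
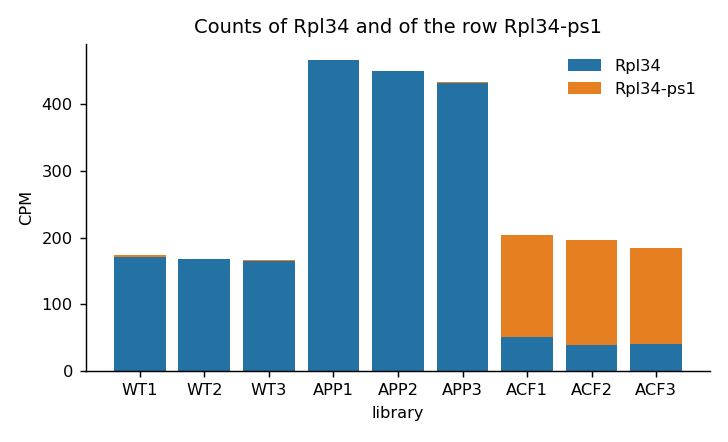
Stacked bars give the CPM (y axis, from 0) of Rpl34 and, above it, of the row Rpl34-ps1 in each of the 9 libraries (x axis). The total in ACF is close to that in WT, and most of it is on the pseudogene row in the ACF libraries alone.

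Ribosomal protein mRNAs are short. The length implied by the deposited counts and FPKM values had a median of 676 nt over the members (range 273 to 5087) and 2915 nt over all tested genes, and 63 members were under 1000 nt. Other short mRNAs moved in the same direction. Among genes of 400 to 500 nt, the median log2 change of APP against WT was 1.29 for 16 members and 1.23 for 80 other genes, which is nearly the same. Under 400 nt it was 0.92 for 9 members and 0.99 for 48 other genes. At 500 to 600 nt the medians were 1.22 (11 members) and 0.85 (99 other genes), and at 600 to 800 nt 0.97 (14 members) and 0.76 (296 other genes). The medians lay further apart in the classes of 800 nt and more. At 800 to 1000 nt their medians were 1.18 (13 members) and 0.53 (428 other genes). At 1000 to 1500 nt they were 0.97 (10 members) and 0.26 (1417 other genes), and at 1500 to 3000 nt 0.96 (6 members) and -0.024 (5172 other genes). The medians of ACF against APP were -0.96 and -0.95 at 400 to 500 nt and -0.73 and -0.23 at 1000 to 1500 nt for members and other genes.

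**Figure D3:**
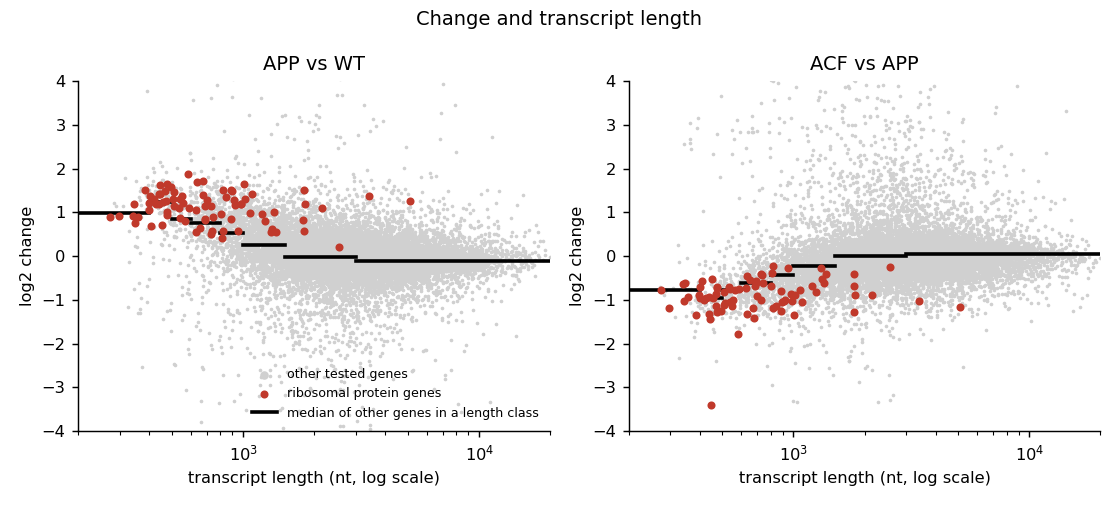
The log2 change of each tested gene (y axis, shown from -4 to 4) is plotted against its transcript length (x axis, log scale) for APP against WT and ACF against APP, with members in red, other genes in grey and the median of the other genes per length class as black bars. The medians of short genes of either kind lie above 0 in APP against WT and below 0 in ACF against APP, while single short genes that are not members lie on both sides, and the few members over 1000 nt lie beyond the black bars of their classes.

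The 3 shortest and the 3 longest members show both ends. Rpl38, Rps27 and Rps29, at 273, 297 and 341 nt, rose in APP by 0.90, 0.92 and 0.92. Rps15a and Rps20, with implied lengths of 5087 and 3397 nt, rose by 1.26 and 1.38, and the third, Rpl7l1 at 2557 nt, by 0.21. The reference transcripts of Rps15a and Rps20 have median lengths of 5130.0 and 3706 nt, although their coding parts are only 390.0 and 357 nt. Across the 81 members the Spearman rho of log2 change with implied length was -0.16 in APP against WT and 0.20 in ACF against APP, and across 14615 other genes -0.27 and 0.21. These points share the same 9 libraries, and genes are not independent replicates.

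A per-library offset was then fitted as a smooth curve over length, estimated on genes that are not members, and the edgeR test was repeated. The median log2 change of the members in APP against WT became 0.25, with 51 higher and 16 lower, where 25.1% and 29.2% of all tested genes passed in these directions. In ACF against APP it became -0.25, with 15 higher and 43 lower beside 27.5% and 24.2% of all tested genes. In ACF against WT it was 0.054, with 31 and 15 beside 25.0% and 20.7%. With offsets in 10 bins of length the medians were 0.58, -0.46 and 0.11, further from 0 than with the smooth curve. The bins held about equal numbers of genes, so the shortest bin was wide. Changes with length inside that bin were not followed. Other tested genes were few only in the shortest classes, with 48 under 400 nt and 80 at 400 to 500 nt beside 9 and 16 members, and 296 at 600 to 800 nt beside 14. After the smooth offsets Rps27a and Rps25 were still higher in APP by the edgeR test, by 0.86 and 0.79, as were Rpl30 by 0.50 and Rpl5 by 0.97. Rpl38, Rps27 and Rps29 were lower in APP by this test, with log2 changes of -0.69, -0.61 and -0.49, as were Rpl36, Rpl18, Rpl13, Rpl8, Rps9 and Rpl7a. The Spearman rho of log2 change with implied length, over the 81 members, turned to 0.68 in APP against WT and -0.56 in ACF against APP with these offsets, and over other genes to 0.072 and -0.048, so a trend with length of opposite sign was left among the members. When GC content was followed as well as length, a choice made after seeing the data, the edgeR test had 53 higher and 13 lower (24.3% and 28.7% of all tested genes) in APP against WT. In ACF against APP it had 10 higher and 46 lower (27.5% and 23.4% of all tested genes), and in ACF against WT 29 higher and 15 lower (26.0% and 21.6% of all tested genes). Over the 32 genes of the 40S subunit the median with the length offsets was 0.090 with 14 higher and 7 lower, and over the 49 of the 60S subunit 0.26 with 37 and 9.

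Other gene lists were counted in the same way, against the 26.9% of tested genes that rose in APP and the 32.0% that fell. Nuclear-encoded respiratory chain subunits, also short, had 68 higher and 0 lower of 72, with a median of 1.14, about that of the ribosomal proteins. Mitochondrial ribosomal proteins had 65 higher and 0 lower of 77 (median 0.61), and proteasome subunits 33 higher and 1 lower of 39 (median 0.60). The elongation factors and other mRNAs known to begin with a pyrimidine run had 18 higher and 0 lower of 21 (median 0.53). Among them Eef1a1, which delivers aminoacyl-tRNA to the ribosome, went from 7293 ± 14.6 to 10988 ± 37.4 CPM (SD, n = 3), a log2 change of 0.59 that was 0.50 with the length offsets. Eef2, the translocation factor, did not pass, at -0.060. Genes of ribosome assembly and rRNA synthesis had 6 higher and 7 lower of 25 (median -0.012), and those of mTOR signalling and the S6 kinases, listed as regulators, 1 higher and 11 lower of 16 (median -0.18). Larp1 changed by -0.23. These counts depended on the scaling. On TPM, where 11.4% of all genes were higher and 65.9% lower by limma, the lists in the same order had 60 higher and 8 lower, 41 higher and 20 lower, 21 higher and 9 lower, 11 higher and 9 lower, 2 higher and 19 lower, and 1 higher and 15 lower. With the smooth length offsets, where 25.1% of all tested genes were higher and 29.2% lower, they had 41 higher and 14 lower, 27 higher and 15 lower, 26 higher and 4 lower, 10 higher and 3 lower, 5 higher and 8 lower, and 1 higher and 9 lower.

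In ACF against APP the respiratory chain list had 2 higher and 67 lower of 72 (median -0.81), the mitochondrial ribosomal proteins 0 higher and 61 lower of 77 (median -0.46) and the proteasome 4 higher and 30 lower of 39 (median -0.40). The elongation list had 4 higher and 14 lower of 21, ribosome assembly 3 higher and 7 lower of 25, and the regulators 6 higher and 2 lower of 16, with medians of -0.24, -0.057 and 0.11. Of all tested genes 27.3% were higher and 27.7% lower in this comparison, and the part of the ribosome assembly list that was lower is near that share. With smooth length offsets the respiratory chain had 18 higher and 35 lower, the mitochondrial ribosome 11 and 26, and the proteasome 8 and 18. The elongation list had 5 and 6, ribosome assembly 4 and 6, and the regulators 6 and 2, beside 27.5% and 24.2% of tested genes. On TPM they had, in order, 5 and 58, 6 and 46, 8 and 23, 7 and 9, 12 and 4, and 13 and 1. Of all genes tested by limma on TPM, 46.6% were higher and 15.3% lower. With the smooth length offsets, the medians in APP against WT were 0.24 for the respiratory chain, 0.072 for the mitochondrial ribosome, 0.26 for the proteasome and 0.048 for the elongation list, beside 0.25 for the cytosolic ribosomal proteins. In ACF against APP they were -0.091, -0.051, -0.062 and 0.018, beside -0.25.

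**Figure D4:**
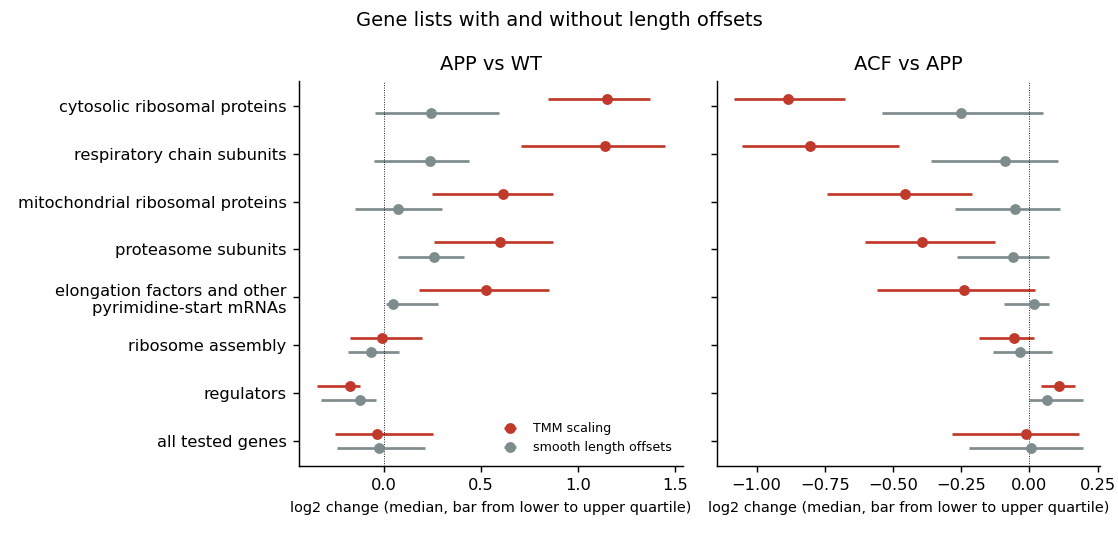
Points give the median log2 change (x axis) of each gene list (y axis) for APP against WT and ACF against APP, and bars run from the lower to the upper quartile of its genes, with TMM scaling in red and smooth length offsets in grey. The lists of short genes lie far from 0 in red and less far in grey. In APP against WT the grey medians are 0.25 for the cytosolic and 0.072 for the mitochondrial ribosomal proteins. They are 0.24 for the respiratory chain, 0.26 for the proteasome and -0.026 for all tested genes.

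Among themselves, the members varied with base composition. The GC content of the coding part had a Spearman rho of -0.62 with the log2 change of APP against WT and 0.62 with that of ACF against APP (n = 81 genes, which share the 9 libraries and differ also in length). With the smooth length offsets these were -0.59 and 0.63. The 8 members with a transcript GC content under 46% showed a median change (log2) of 1.42 in APP against WT, and the 25 with 54% or more one of 0.90. These members are of all lengths, and those under 1000 nt were at 1.48 for 5 genes and 0.90 for 24. Other genes under 1000 nt showed the same order at a lower level, 0.95 for 158 genes and 0.53 for 367. Transcript GC had a rho of -0.52 among members and -0.23 among 14320 other genes. The first 120 coding bases are shown for the 2 members with the smallest and the 2 with the largest rises in APP among members with a mean of at least 1000 counts, a limit set after seeing the data. They come from GENCODE mouse release M21 (GRCm38), with G and C in capitals. Rpl7l1 and Rpl8 have 50.3% and 58.8% GC over the coding part and rose by 0.21 and 0.42. Rps25 and Rps27a have 48.5% and 45.9% and rose by 1.70 and 1.71. Rpl7l1, which rose least, is thus much closer in coding GC to Rps25 than to Rpl8, and goes against the order seen over the members.
Rpl7l1: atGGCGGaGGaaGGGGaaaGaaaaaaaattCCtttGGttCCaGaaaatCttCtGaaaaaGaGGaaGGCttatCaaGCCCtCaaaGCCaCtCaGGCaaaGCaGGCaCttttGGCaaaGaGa
Rpl8: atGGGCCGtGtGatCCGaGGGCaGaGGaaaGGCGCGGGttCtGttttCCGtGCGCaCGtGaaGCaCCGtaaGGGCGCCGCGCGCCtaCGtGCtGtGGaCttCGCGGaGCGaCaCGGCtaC
Rps25: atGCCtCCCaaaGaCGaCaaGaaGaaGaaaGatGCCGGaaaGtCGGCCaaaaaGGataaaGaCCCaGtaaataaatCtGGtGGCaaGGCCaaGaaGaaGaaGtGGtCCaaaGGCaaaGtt
Rps27a: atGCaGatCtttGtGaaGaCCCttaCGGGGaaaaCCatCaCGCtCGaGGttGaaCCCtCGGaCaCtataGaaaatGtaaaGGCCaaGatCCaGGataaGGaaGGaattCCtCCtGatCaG
Of the bases shown, G or C make up 53 in Rpl7l1, 79 in Rpl8, 54 in Rps25 and 56 in Rps27a.

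**Figure D5:**
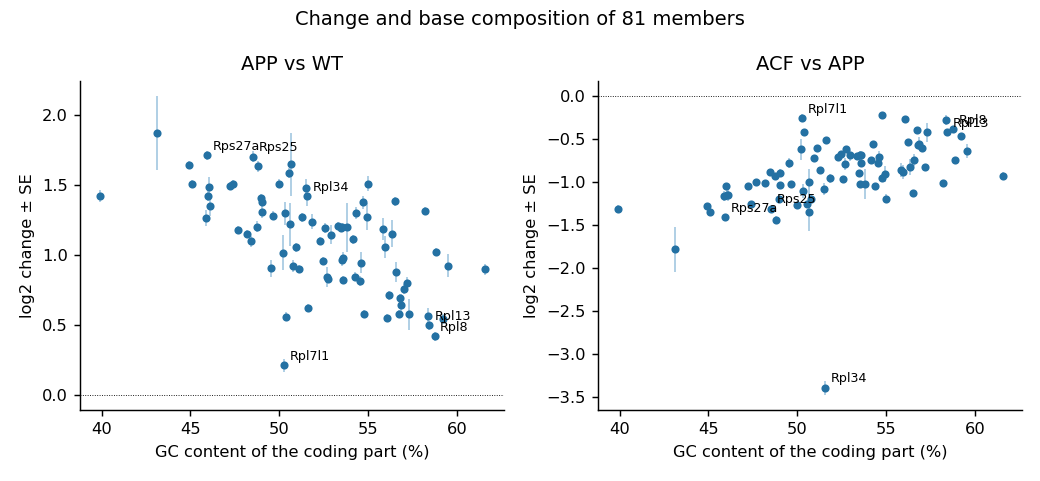
Each point is 1 of the 81 members, with the GC content of its coding part on the x axis (%) and its log2 change with the SE of the edgeR fit on the y axis, for APP against WT and ACF against APP. Members poor in GC rose more in APP and fell more in ACF, and Rpl7l1 and, in ACF, Rpl34 lie off the trend.

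Promoters of the members were searched for short motifs in windows of 300 bases, from 250 before to 50 after the start, on both strands. RefSeq entries on GRCm38.p6 matched 61 of the 81 members with 72 promoters. The core of an Ets-factor site, CCGGAAG, was in 37.5% of the member promoters, 15.2% of promoters of tested genes and 8.86% of all 32851 promoters. The GC box GGGCGG was in 61.1%, 58.7% and 35.7%. The TATA box TATAAA was in 9.72%, 7.79% and 13.6%, and the E-box CACGTG in 11.1%, 9.32% and 7.15%. The YY1 core AAGATGGC was in 11.1%, 3.88% and 2.75%. None of these motifs contains another, although the Ets and YY1 cores can share the letters AAG. Members with the Ets core showed a median change (log2) of 1.20 in APP against WT (n = 26, range 0.56 to 1.87), and those without it 1.10 (n = 35, range 0.21 to 1.63), and the ranges overlapped. The 250 bases before the start are printed for Rpl7l1 (chr17:46782657-46782906, minus strand), the member that rose least, and Rps25 (chr9:44407464-44407713, plus strand), the most strongly raised with a mean of at least 1000 counts and a single promoter entry. Capitals mark the Ets core, which is in Rps25 alone of these 2.
Rpl7l1: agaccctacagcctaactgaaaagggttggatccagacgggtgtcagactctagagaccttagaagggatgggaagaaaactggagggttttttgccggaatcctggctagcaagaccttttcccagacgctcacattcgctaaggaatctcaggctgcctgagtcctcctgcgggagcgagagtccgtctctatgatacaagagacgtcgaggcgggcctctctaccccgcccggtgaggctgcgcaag
Rps25: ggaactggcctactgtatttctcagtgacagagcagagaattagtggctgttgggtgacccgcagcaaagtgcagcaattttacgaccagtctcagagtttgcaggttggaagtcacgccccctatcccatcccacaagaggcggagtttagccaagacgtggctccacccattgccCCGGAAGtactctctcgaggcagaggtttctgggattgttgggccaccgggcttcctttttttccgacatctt
A match describes letters in the window and does not show that a factor binds there.

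Within groups the members varied little. The coefficient of variation of CPM over the 3 libraries had a median of 3.23% in WT, 3.95% in APP and 3.91% in ACF, and the highest reached 20.2%, 20.3% and 19.3%. Rpl31 was the most variable, with 63.2, 46.7 and 44.1 CPM in WT, 198, 141 and 142 in APP and 76.6, 57.9 and 53.96 in ACF. Library 1 was the highest in each group, by about as much each time. Of the 81 members, 30 had library 1 as the highest of its group in WT, APP and ACF alike and 16 had it as the lowest in all 3, among them Rps19 with 252, 298 and 298 CPM in WT, 571, 672 and 643 in APP and 325, 375 and 364 in ACF. Library 3 was the lowest in all 3 groups for 33 members. The share of all tested genes with such orders was not counted, so these counts do not mark a trait of the members. Without the 3 libraries numbered 1, a choice made after seeing the data, the median log2 change was 1.15 in APP against WT and -0.88 in ACF against APP, and all 81 members passed in both by the edgeR test. The shares of all tested genes in that fit are not given here. With all 9 libraries 26.9% rose in APP against WT and 27.7% fell in ACF against APP. A pattern near the median of all members over the 9 libraries, by Pearson r of log2 CPM, belonged to Rpl26 (r = 0.9996), Rps25, Rps7 and Rpl30. The farthest were Rpl34 (r = 0.676), Rpl7l1 (r = 0.844), Rpl7a (0.903), Rps2 (0.904) and Rps27 (0.906).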

How the data were processed

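RNA of 9 microglia libraries was analysed, 3 each of WT, APP and ACF, grouped by the genotype in their labels. Per the file headers, the deposited table holds, for each library, TPM, FPKM, estimated counts and normalised counts. The authors' tools named in the submitters' processing notes are HISAT, Bowtie2 and DESeq2, with build GRCm38.p6; versions, counting program and settings are not given in the sources used here. The deposited normalised counts, a signal, equal the estimated count rounded up times a single factor per library, and were not used for tests.

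Estimated counts were rounded and tested with edgeR 4.0.16 (quasi-likelihood, robust, R 4.3.3) after TMM scaling and filterByExpr by group, in a single fit of all 9 libraries without a block. All 81 members passed this filter on low counts, among 14696 tested genes. P-values were adjusted over all tested genes after Benjamini and Hochberg, and 0.05 was the threshold. CPM uses the scaled library sizes. Transcript length is the median over libraries of the length that the deposited counts and FPKM values imply. Length offsets came from a lowess curve (span 0.2), or medians in 10 bins, of each library's log ratios over non-member genes averaging 50 counts or more. Reference lengths, GC content and coding parts came from GENCODE mouse release M21, gene positions and promoters from RefSeq (GRCm38.p6). The steps were tested on simulated data.

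Alternatives were the DESeq2 1.42.0 Wald test, its size factors, unscaled totals, limma 3.58.1 on log2 of TPM or FPKM (pseudocount 1 or 0.1), other filters, other groups in the fit, the replicate number as a block, length offsets, and leaving out libraries. The members and the gene lists were chosen with earlier results of these data known. Genes named are, in each contrast, the 5 largest and 5 smallest changes, the 5 highest TPM, the 3 shortest and 3 longest, paralogue pairs, X-linked and well-known members, and the 5 nearest to and 5 farthest from the median pattern, with up to 3 genes of the highest CPM from each other list. Some genes that this rule names are not reported here. No amino acid sequences were used. PCR copies were not told apart.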

Additional observations from a re-analysis of the deposited data

How the results depend on the processing

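Without each library in turn the members passing were 81 in APP against WT each time, 80 to 81 in ACF against APP and 56 to 66 in ACF against WT, and their median log2 changes 1.13 to 1.17, -0.89 to -0.85 and 0.23 to 0.26. The shares of all tested genes in these fits are not given here. With all 9 libraries 26.9% were higher and 32.0% lower in APP against WT. The shares were 27.3% and 27.7% in ACF against APP and 24.7% and 23.0% in ACF against WT. DESeq2, its size factors, both filters on low counts, the groups compared alone and the stricter threshold kept each count within 1.5 times and each direction. The labels do not say that a replicate number marks anything shared, and the numbers were not taken as pairs. Deviations from group means correlated by 0.060 to 0.26 between same-numbered libraries (9 pairs, 10808 genes, 0.18 on average), a hint from the data and not from the design. Between others they correlated by -0.091 on average. That value follows from the 0.18, since deviations sum to 0 in each group, and is no separate observation. The 3 pairs of APP and WT were at 0.14 to 0.26, while 2 pairs with ACF were under 0.1. Every library correlated best with its own number in each other group, except APP library 3, at 0.084 with ACF library 2 and 0.060 with ACF library 3. With the number as a block the biological coefficient of variation fell from 3.14% to 0.988%, and no count moved by over 1.5 times: 81, 81 and 76 members passed in APP against WT, ACF against APP and ACF against WT (61 without it in the last), with medians of 1.15, -0.89 and 0.23. Of all tested genes with this block, 28.6% were higher and 34.8% lower in APP against WT. The shares were 30.3% and 29.9% in ACF against APP and 27.9% and 26.1% in ACF against WT. In what follows, the percentages after "all genes" are the shares of all tested genes called higher and lower under the same setting. With smooth length offsets, APP against WT had 51 higher and 16 lower (median 0.25, all genes 25.1% and 29.2%), ACF against APP 15 higher and 43 lower (median -0.25, all genes 27.5% and 24.2%) and ACF against WT 31 higher and 15 lower (median 0.054, all genes 25.0% and 20.7%). With the replicate block and smooth length offsets, APP against WT had 56 higher and 20 lower (median 0.24, all genes 27.3% and 32.6%), ACF against APP 20 higher and 48 lower (median -0.25, all genes 30.7% and 26.7%) and ACF against WT 40 higher and 21 lower (median 0.054, all genes 28.2% and 24.2%). With length offsets in 10 bins, APP against WT had 73 higher and 2 lower (median 0.58, all genes 26.6% and 28.0%), ACF against APP 3 higher and 72 lower (median -0.46, all genes 25.2% and 26.8%) and ACF against WT 36 higher and 5 lower (median 0.11, all genes 24.4% and 21.8%). With smooth length and GC offsets, APP against WT had 53 higher and 13 lower (median 0.24, all genes 24.3% and 28.7%), ACF against APP 10 higher and 46 lower (median -0.21, all genes 27.5% and 23.4%) and ACF against WT 29 higher and 15 lower (median 0.055, all genes 26.0% and 21.6%). With smooth offsets on reference length, APP against WT had 62 higher and 9 lower (median 0.44, all genes 25.5% and 29.6%), ACF against APP 8 higher and 58 lower (median -0.33, all genes 27.6% and 24.5%) and ACF against WT 37 higher and 8 lower (median 0.10, all genes 25.4% and 21.2%). With limma on TPM, APP against WT had 78 higher and 1 lower (median 0.76, all genes 11.4% and 65.9%), ACF against APP 0 higher and 77 lower (median -0.69, all genes 46.6% and 15.3%) and ACF against WT 24 higher and 11 lower (median 0.036, all genes 12.2% and 49.4%). The last makes 35 in all. With limma on FPKM (pseudocount 1), APP against WT had 80 higher and 0 lower (median 1.01, all genes 19.6% and 45.4%), ACF against APP 0 higher and 81 lower (median -0.85, all genes 28.9% and 24.2%) and ACF against WT 46 higher and 5 lower (median 0.13, all genes 16.5% and 35.1%). With limma on FPKM (pseudocount 0.1), APP against WT had 80 higher and 0 lower (median 1.02, all genes 19.5% and 45.0%), ACF against APP 0 higher and 81 lower (median -0.86, all genes 29.0% and 24.3%) and ACF against WT 46 higher and 5 lower (median 0.13, all genes 16.4% and 34.9%). With unscaled totals, APP against WT had 80 higher and 0 lower (median 1.01, all genes 19.6% and 46.9%), ACF against APP 0 higher and 81 lower (median -0.86, all genes 30.6% and 25.2%) and ACF against WT 44 higher and 6 lower (median 0.13, all genes 16.7% and 38.1%). With Rpl34 and its pseudogene row summed, 1 member was lower in ACF than in WT. The part of counts in members became, as summed TPM, 10.02, 16.6 and 10.2%, and without the 5 members with the most counts 2.76, 5.33 and 2.99%, in WT, APP and ACF. On reference lengths the rho of members' changes with length was -0.19, 0.24 and 0.022 in APP against WT, ACF against APP and ACF against WT, and with GC content in place of length -0.52, 0.53 and -0.13, the last of opposite sign to the 0.044 with implied length.

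Of the values of single named genes under the alternatives, 2675 kept their direction and side of the threshold, 67 kept the direction without passing, 17 passed where they had not, and 127 had the opposite sign. The smooth and binned length offsets take the trend of other genes out by construction, the binned ones only between bins. For the other settings the cause was not tested. With the smooth length offsets the sign was opposite in APP against WT, -0.29 for Rpl13, -0.36 for Rpl18, -0.48 for Rpl36, -0.0053 for Rpl36a, -0.69 for Rpl38, -0.078 for Rpl41, -0.11 for Rpl7a, -0.28 for Rpl8, -0.0013 for Rps2, -0.61 for Rps27, -0.49 for Rps29 and -0.24 for Rps9, in ACF against APP, 0.19 for Rpl13, 0.24 for Rpl18, 0.027 for Rpl35, 0.12 for Rpl36, 0.44 for Rpl38, 0.28 for Rpl41, 0.31 for Rpl7a, 0.15 for Rpl8, 0.0074 for Rps19, 0.15 for Rps2, 0.44 for Rps29 and 0.12 for Rps9, in ACF against WT, -0.18 for Rpl22l1, -0.017 for Rpl36a, -0.15 for Rpl39 and -0.14 for Rpl39l. With these offsets and the replicate block the sign was opposite in APP against WT, -0.29 for Rpl13, -0.36 for Rpl18, -0.48 for Rpl36, -0.0056 for Rpl36a, -0.69 for Rpl38, -0.077 for Rpl41, -0.11 for Rpl7a, -0.28 for Rpl8, -0.0015 for Rps2, -0.61 for Rps27, -0.49 for Rps29 and -0.24 for Rps9, in ACF against APP, 0.19 for Rpl13, 0.24 for Rpl18, 0.027 for Rpl35, 0.12 for Rpl36, 0.44 for Rpl38, 0.28 for Rpl41, 0.31 for Rpl7a, 0.15 for Rpl8, 0.0078 for Rps19, 0.16 for Rps2, 0.44 for Rps29 and 0.12 for Rps9, in ACF against WT, -0.18 for Rpl22l1, -0.017 for Rpl36a, -0.15 for Rpl39 and -0.14 for Rpl39l. With length offsets in 10 bins the sign was opposite in APP against WT, -0.12 for Rpl13, -0.074 for Rpl18, -0.040 for Rpl7a, -0.20 for Rpl8 and -0.053 for Rps2, in ACF against APP, 0.051 for Rpl13, 0.011 for Rpl18, 0.24 for Rpl7a, 0.085 for Rpl8 and 0.19 for Rps2, in ACF against WT, -0.044 for Rpl22l1 and -0.060 for Rpl39l. With length and GC offsets the sign was opposite in APP against WT, -0.14 for Rpl13, -0.19 for Rpl18, -0.018 for Rpl22l1, -0.27 for Rpl36, -0.083 for Rpl36a, -0.59 for Rpl38, -0.070 for Rpl7a, -0.10 for Rpl8, -0.61 for Rps27, -0.43 for Rps29 and -0.16 for Rps9, in ACF against APP, 0.073 for Rpl13, 0.12 for Rpl18, 0.0024 for Rpl36, 0.040 for Rpl36a, 0.35 for Rpl38, 0.19 for Rpl41, 0.26 for Rpl7a, 0.029 for Rpl8, 0.054 for Rps2, 0.38 for Rps29 and 0.047 for Rps9, in ACF against WT, -0.19 for Rpl22l1, -0.042 for Rpl36a, -0.18 for Rpl39 and -0.17 for Rpl39l. With smooth offsets on reference length the sign was opposite in APP against WT, -0.16 for Rpl13, -0.22 for Rpl18, -0.34 for Rpl36, -0.36 for Rpl38, -0.089 for Rpl8, -0.40 for Rps27 and -0.30 for Rps29, in ACF against APP, 0.092 for Rpl13, 0.14 for Rpl18, 0.044 for Rpl36, 0.22 for Rpl38, 0.069 for Rpl41, 0.19 for Rpl7a, 0.012 for Rpl8, 0.077 for Rps2 and 0.32 for Rps29, in ACF against WT, -0.10 for Rpl22l1, -0.027 for Rpl39 and -0.078 for Rpl39l. With limma on TPM the sign was opposite in APP against WT, -0.18 for Rpl7l1, in ACF against WT, -0.095 for Rpl22l1, -0.086 for Rpl3, -0.041 for Rpl39, -0.078 for Rpl39l and -0.018 for Rps4x. With limma on FPKM (pseudocount 1) the sign was opposite in ACF against WT, -0.0047 for Rpl22l1 and -0.017 for Rpl39l. With limma on FPKM (pseudocount 0.1) the sign was opposite in ACF against WT, -0.0047 for Rpl22l1 and -0.027 for Rpl39l. With unscaled totals the sign was opposite in ACF against WT, -0.0041 for Rpl22l1 and -0.020 for Rpl39l. Without ACF library 2 the sign was opposite in ACF against WT, -0.046 for Rpl39l. Summed with its pseudogene the sign was opposite in ACF against WT, 0.20 for Rpl34. Depth limited Rpl39l most, with 9.00 to 40.9 counts per library.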
